A study of Sus scrofa domesticus with 34 samples.

Results

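Respiratory complex I contains 7 subunits that are encoded by mitochondrial DNA, ND1, ND2, ND3, ND4, ND4L, ND5 and ND6, and the levels of their transcripts were described in 34 pig libraries. The genes were found by the Ensembl identifier that the name table pairs with each symbol. All 7 of 7 were present among the 31907 genes of the count files, and all 7 passed the expression filter, which kept 13974 genes. Their identifiers are ENSSSCG00000018065 for ND1, ENSSSCG00000018069 for ND2, ENSSSCG00000018084 for ND3, ENSSSCG00000018087 for ND4, ENSSSCG00000018086 for ND4L, ENSSSCG00000018091 for ND5 and ENSSSCG00000018092 for ND6. The genes were selected on their levels and shares across the 4 diets, the runs of file numbers and a regional score in these same libraries, so differences along all 3 are given as a description, and no test of them supports anything.

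The libraries came from pigs fed 1 of 4 diets, were labelled muscle, and were made with QuantSeq, which counts a fragment near the end of each polyadenylated RNA, so that levels need no correction for transcript length. Feed doses are given per kg for the grower and then the finisher phase. Feed with 25(OH)D (n = 8) contained 2000 and 1500 IU of 25(OH)D, the hydroxylated form of the vitamin made by the liver, and no cholecalciferol. The combination (n = 8) contained 2000 and 1500 IU of cholecalciferol with 1000 IU of 25(OH)D in each phase. Increased cholecalciferol (n = 10) stood for 3000 and 2500 IU of cholecalciferol. Standard cholecalciferol (n = 8), which is the control, stood for 2000 and 1500 IU. Each diet had 4 castrated males, and the rest of its pigs were female, 6 with increased cholecalciferol and 4 in each other diet. All diets therefore supplied vitamin D, no group was without it, and ages were not given.

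Complex I takes electrons from NADH, passes them to ubiquinone and pumps protons across the inner mitochondrial membrane. ND2, ND4 and ND5 are its large antiporter-like pump subunits, ND1 and ND3 lie where the membrane arm meets the quinone-binding site, and ND4L and ND6 are small subunits between these. All other subunits are encoded in the nucleus and imported, and both muscle and brain depend on the complex for oxidative energy. In mammalian mitochondria the genes are transcribed as long precursors and cut into separate mRNAs. In human cells ND4L and ND4 remain on a shared mRNA, and ND6 is the only protein gene on the light strand, with an mRNA that largely lacks a poly(A) tail. Neither the genome build nor the strand setting of the counting is given in the sources used here, so reads of ND6 and reads of antisense RNA over it cannot be told apart, nor can the division of reads between ND4L and the adjoining ND4.

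Total gene counts lay between 1.34 and 30.4 M per library (M for 1e+06 reads), with a median of 6.67 M. Depth followed the numbers in the names of the deposited files, at 4.08 to 13.2 M for numbers 1 to 24, 16.8 to 30.4 M for 25 to 29 and 1.34 to 2.69 M for 30 to 34. The tissue label was set against defining markers. The myelin gene MBP averaged 3361 ± 1643 CPM (gene counts scaled to a total of 1e+06, SD, n = 34), the neuronal SNAP25 1413 ± 583 CPM and the astrocyte GFAP 1216 ± 672 CPM, beside 1645 ± 957 CPM for the muscle actin ACTA1 and 339 ± 180 CPM for the muscle creatine kinase CKM. The libraries therefore held abundant RNA of nervous tissue, and values below are those of libraries labelled muscle. Genes listed for skeletal muscle differed widely in level. TNNC2 ran from 322 to 1880 CPM and NEB from 162 to 844 CPM. By contrast, ATP2A1 ran from 0.143 to 5.22 CPM, MYL1 from 1.34 to 15.1 CPM and TNNI1 from 0 to 1.90 CPM. Sums over such genes mostly follow the abundant ones. In such bulk RNA, fewer cells of a type and less RNA per cell cannot be told apart. The 5 libraries of file numbers 30 to 34 stood apart. The summed level of 16 skeletal muscle genes was 5892 to 8531 CPM in them, against 2720 to 5914 CPM in numbers 25 to 29 and 1335 to 7375 CPM in numbers 1 to 24. Their 10 pairs differed by a chi-square of 2.38 to 4.14 per gene, where sampling alone gives 1 and the median over all 561 pairs was 31.5. For a given difference this measure rises with the number of reads, and these 5 libraries were the shallowest. The summed level of the Y-linked genes KDM5D and EIF1AY was 5.71 to 7.83 CPM in their 4 females and 0.588 to 4.77 CPM in the other 14 females, against 12.1 CPM in their 1 castrated male and 6.70 to 24.5 CPM in the other 15. Their part in the results was not tested, and values without them are given beside the diet, sex, regional and marker results.

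ND4, ND3 and ND2 had the highest levels of the 7 transcripts and ND4L the lowest. ND4 averaged 20584 ± 7429 CPM over the 34 libraries (SD), ND3 18270.5 ± 6166 CPM, ND2 17175 ± 6601 CPM and ND1 11519 ± 3202 CPM. ND5 averaged 5158 ± 855 CPM, ND6 2882 ± 860 CPM and ND4L 411 ± 71.8 CPM. The order of the upper 3 was not fixed within libraries. ND4 exceeded ND3 in 28 of 34 libraries, with ND3 at 0.720 to 1.13 times ND4, and ND3 exceeded ND2 in 27 of 34, with ND2 at 0.805 to 1.12 times ND3. The lower steps were nearly free of exceptions. ND1 lay below ND2 in all 34 libraries and above ND5 in all 34, at 1.45 to 3.10 times ND5. ND5 lay above ND6 in 33 of 34, at 0.978 to 2.49 times ND6, and ND4L lay below ND6 in all 34, at 0.0765 to 0.220 times ND6. The lowest count behind any value was 433 reads, for ND4L, against at least 3457 for ND6 and at least 6745 for each of the others. Counting error was therefore small beside the differences between libraries.

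The 7 transcripts together took 4.40 to 15.6% of the gene counts of a library, with a median of 7.13%. The widest 95% Wilson interval of such a share was 0.0829 percentage points, which covers counting error only, since the reads carry no molecular identifiers as far as the files show. Among the counts of the 13 protein genes of mitochondrial DNA, the ND genes made up 24.6 to 44.9%, with a median of 33.3%. The other 6 were ATP6, at 55985 ± 19700 CPM (SD, n = 34), COX3, at 50560 ± 10897 CPM, CYTB, at 26218 ± 5704 CPM, COX2, at 13052 ± 2937 CPM, COX1, at 8373 ± 2658 CPM, and ATP8, at 723 ± 194 CPM. ND4L and ATP8 had the fewest reads of the 13 genes, and how reads were divided between ND4L and the adjoining ND4 is not known here.

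**Figure D1:**
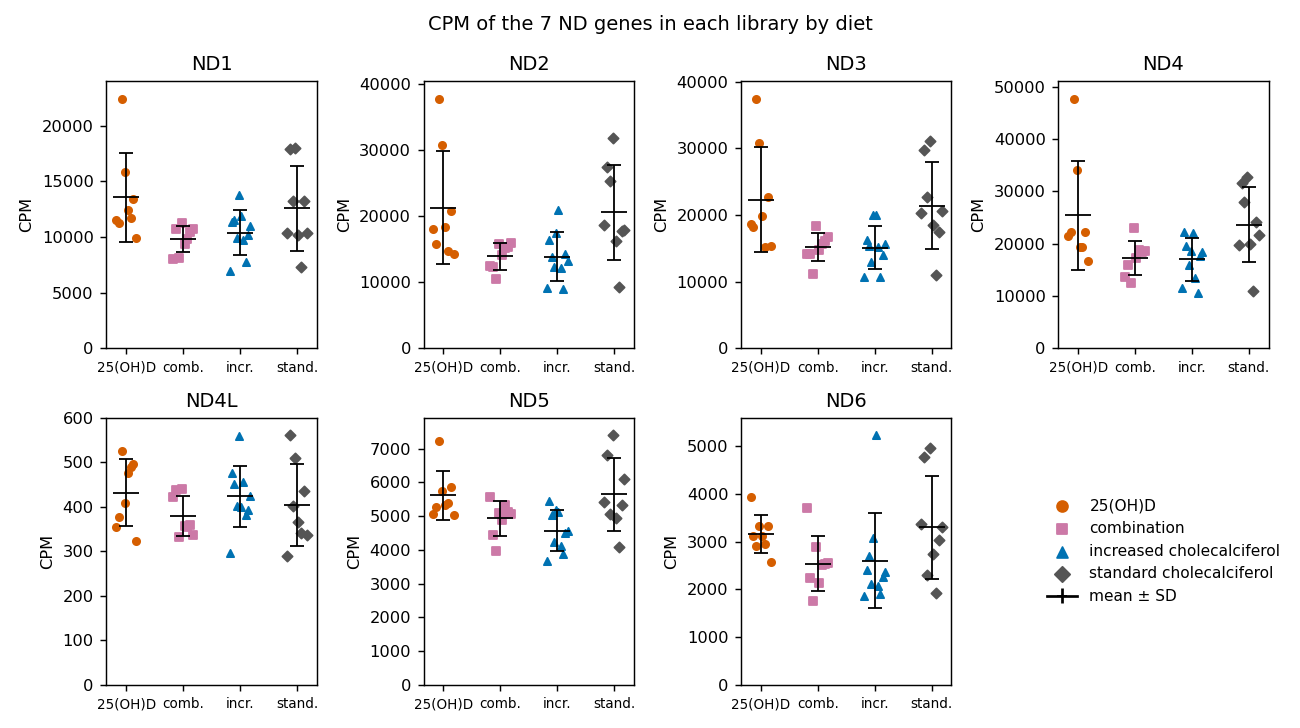
Level of each of the 7 ND transcripts in CPM (vertical axes, each from 0), with 1 point per library and mean ± SD by diet (25(OH)D, n = 8; combination, n = 8; increased cholecalciferol, n = 10; standard cholecalciferol, n = 8). The highest ND4 point, 47742 CPM, belongs to the 25(OH)D diet, and ranges of all diets overlap in each panel.

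The large pump subunits ND2 and ND4 varied most between libraries and ND5 and ND4L least. The coefficient of variation of the level was 38.4% for ND2, 36.1% for ND4, 33.7% for ND3, 29.8% for ND6, 27.8% for ND1, 17.5% for ND4L and 16.6% for ND5. ND2 spanned 8918 to 37759 CPM, whereas ND5, which has a similar role in proton pumping, spanned 3680 to 7402 CPM. ND4L spanned 289 to 561 CPM. The spread of ND4L is therefore smaller than that of ND4, with which it shares an mRNA in human cells, and the ratio of ND4 to ND4L ran from 27.9 to 90.9 with a median of 50.0.

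The transcripts moved together to different degrees. Over the 21 pairs and 34 libraries, Pearson's r of log2 CPM ran from 0.38 to 0.98 with a median of 0.78. These are descriptions with no test, since the pairs share libraries, depth and the sum that scales them. The closest pair was ND2 and ND3 (r = 0.98), followed by ND2 and ND4 (r = 0.96), and ND1 had r = 0.93 to 0.94 with each of ND2, ND3 and ND4. ND4L had the weakest ties, at r = 0.38 with ND6, 0.47 with ND2, 0.49 with ND4, 0.50 with ND3, 0.50 with ND5 and 0.69 with ND1. ND6 correlated most with ND5 (r = 0.78), which lies against it on the opposite strand in mammals. Within file numbers 1 to 24 (n = 24) the same pairs had r = 0.98 for ND2 with ND3, 0.47 for ND4 with ND4L and 0.77 for ND5 with ND6.

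**Figure D2:**
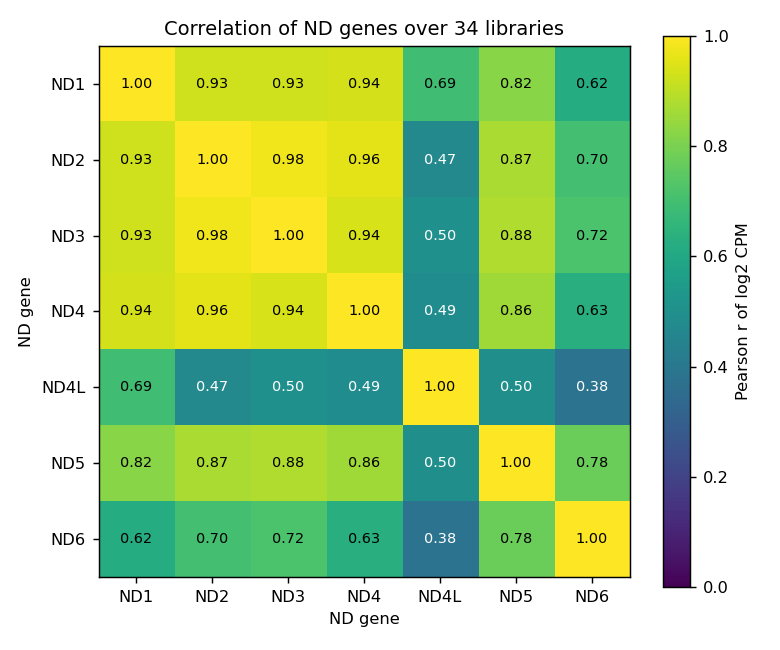
Pearson's r of log2 CPM between each pair of the 7 ND transcripts over 34 libraries, as a grid with the gene names on both axes and the colour and printed number giving r. ND1, ND2, ND3 and ND4 form a square of values of at least 0.93, and the row of ND4L holds the lowest values, from 0.38 with ND6 to 0.69 with ND1.

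Between diets, most ND transcripts were higher in 25(OH)D and standard cholecalciferol libraries than in the combination and increased cholecalciferol libraries, with wide overlap of single libraries. The summed share of the 7 transcripts had a median of 7.90% (6.41 to 15.6%) with 25(OH)D, 6.53% (4.81 to 7.67%) with the combination, 6.44% (4.40 to 8.56%) with increased cholecalciferol and 8.08% (4.48 to 12.7%) with standard cholecalciferol. The mean shares were 9.17 ± 3.12% (SD, n = 8), 6.40 ± 0.873% (n = 8), 6.39 ± 1.37% (n = 10) and 8.75 ± 2.62% (n = 8) in that order. All ranges overlapped, and the standard cholecalciferol diet held libraries close to both ends. Of the 7 genes, 0 passed an adjusted p of 0.05 in any of the 6 contrasts between diets (edgeR's quasi-likelihood test with Benjamini-Hochberg adjustment), where 0% of the 13974 genes passed in each. DESeq2 and limma-voom also called 0 genes. At an unadjusted p under 0.05, edgeR gave 4 of 7 for increased against standard cholecalciferol, 4 for the combination against standard, 0 for 25(OH)D against standard, 0 for the combination against increased, 5 for 25(OH)D against increased and 4 for 25(OH)D against the combination. Over all genes the same limit gave 7.77%, 4.34%, 3.23%, 4.14%, 12% and 7.57%. Estimates lay below 0 for 6 of 7 ND genes in increased minus standard cholecalciferol (49.2% of all genes), 7 in the combination minus standard (50.5%), 1 in 25(OH)D minus standard (51.7%), 6 in the combination minus increased (50.1%), 0 in 25(OH)D minus increased (49.5%) and 0 in 25(OH)D minus the combination (50.7%). Nothing is read from these counts, since diet values entered the choice of the genes.

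Among the pump subunits, ND2 had a median of 18154 CPM (14203 to 37759) with 25(OH)D, 14599 CPM (10387 to 15918) with the combination, 13522 CPM (8918 to 20923) with increased cholecalciferol and 18265 CPM (9193 to 31788) with standard cholecalciferol. The upper libraries of the first and last of these diets exceeded all combination and increased cholecalciferol libraries, and the lower ones lay among them. ND4 had a median of 21829 CPM (16699 to 47742) with 25(OH)D, 17864 CPM (12402 to 22945) with the combination, 18018 CPM (10623 to 22299) with increased cholecalciferol and 22958 CPM (11008 to 32767) with standard cholecalciferol. The pattern matched that of ND2. ND5 had a median of 5361 CPM (5032 to 7243) with 25(OH)D, 5079 CPM (3967 to 5566) with the combination, 4545 CPM (3680 to 5443) with increased cholecalciferol and 5378 CPM (4083 to 7402) with standard cholecalciferol. Its medians lay closer together than those of ND2 and ND4, and of the 3 other diets only increased cholecalciferol had a median below the lowest 25(OH)D library.

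Of the subunits near the quinone site, ND1 had a median of 12076 CPM (9915 to 22458) with 25(OH)D, 10166 CPM (8062 to 11237) with the combination, 10565 CPM (6912 to 13748) with increased cholecalciferol and 11798 CPM (7262 to 18024) with standard cholecalciferol. ND3 had a median of 19291 CPM (15127 to 37494) with 25(OH)D, 15226 CPM (11149 to 18348) with the combination, 15198 CPM (10621 to 19936) with increased cholecalciferol and 20448 CPM (10987 to 31081) with standard cholecalciferol. Both genes overlapped between all diets. Of the small subunits, ND4L had medians of 442 CPM (323 to 525), 358 CPM (332 to 439), 413 CPM (295 to 558) and 383 CPM (289 to 561) in the same order of diets. Its lowest and its highest library both came from standard cholecalciferol. ND6 had medians of 3126 CPM (2579 to 3940), 2527 CPM (1747 to 3701), 2321 CPM (1859 to 5232) and 3166 CPM (1914 to 4956), and its highest library came from increased cholecalciferol.

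The fitted differences, in which sex was a covariate, put numbers to this pattern, and the contrasts share libraries with each other. For 25(OH)D minus standard cholecalciferol, the log2 fold changes ran from −0.05 for ND6 (SE 0.23) to 0.15 for ND1 (SE 0.22), with ND4 at 0.14 (SE 0.25). For the combination minus standard cholecalciferol they were −0.65 for ND2 (SE 0.26), −0.59 for ND3 (SE 0.24), −0.52 for ND4 (SE 0.25), −0.48 for ND6 (SE 0.23), −0.44 for ND1 (SE 0.22), −0.28 for ND5 (SE 0.16) and −0.18 for ND4L (SE 0.18). For increased minus standard cholecalciferol, ND2 was at −0.60 (SE 0.25), ND3 at −0.55 (SE 0.22), ND4 at −0.50 (SE 0.24), ND6 at −0.40 (SE 0.22), ND5 at −0.35 (SE 0.15), ND1 at −0.32 (SE 0.21) and ND4L at 0.01 (SE 0.17). The combination and increased cholecalciferol differed little, from −0.18 for ND4L (SE 0.17) to 0.08 for ND5 (SE 0.15). For 25(OH)D minus the combination, ND2 was at 0.73 (SE 0.26), ND3 at 0.68 (SE 0.24), ND4 at 0.66 (SE 0.25), ND1 at 0.59 (SE 0.22), ND6 at 0.43 (SE 0.23), and ND5 and ND4L at 0.31 (SE 0.16 and 0.18). For 25(OH)D minus increased cholecalciferol, ND2 was at 0.68 (SE 0.25), ND3 at 0.64 (SE 0.23), ND4 at 0.64 (SE 0.24), ND1 at 0.47 (SE 0.21), ND5 at 0.39 (SE 0.15), ND6 at 0.35 (SE 0.22) and ND4L at 0.13 (SE 0.17).

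The medians of the 7 genes, beside the medians of all 13974 genes, were 0.09 and −0.01 for 25(OH)D minus standard cholecalciferol, −0.48 and −0.00 for the combination minus standard, and −0.40 and 0.01 for increased minus standard. They were −0.05 and −0.00 for the combination minus increased cholecalciferol, 0.47 and 0.00 for 25(OH)D minus increased, and 0.59 and −0.01 for 25(OH)D minus the combination. The 6 other mitochondrial protein genes had medians of 0.14, −0.30, −0.19, −0.10, 0.30 and 0.39 in the same order. The 26 tested nuclear genes of complex I had medians of 0.01, 0.07, 0.06, 0.04, −0.02 and −0.09, and 0 of 26 passed in each. In increased minus standard cholecalciferol the sign of ND4L depended on the scaling, the model and the libraries. It was at −0.00 when library sizes were taken over genes outside mitochondrial DNA. All 7 genes also lay below 0 with a term for file run, without the sex term, without numbers 30 to 34 and within numbers 1 to 24 (highest −0.15). By DESeq2, limma-voom and RLE scaling 1 of 7 stayed above 0. With single libraries left out, ND4L ran from −0.06 to 0.13.

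Markers of other cells moved beside the diets. The summed level of the 16 skeletal muscle genes was 2440 to 7375 CPM with 25(OH)D, 2446 to 8531 CPM with the combination, 1933 to 5131 CPM with increased cholecalciferol and 1335 to 5914 CPM with standard cholecalciferol, and TNNI1, a slow troponin, was the one gene of the list listed at 0, in 11 libraries. The median log2 fold change of its 15 tested genes was 0.60 for 25(OH)D minus standard cholecalciferol, 0.70 for the combination minus standard and 0.37 for increased minus standard. The median of the 15 tested cerebellum genes was −0.42, 0.04 and −0.45 in these contrasts. Where the ND genes differed most, in 25(OH)D minus the combination, 15 of 15 cerebellum genes lay below 0 (median −0.51), 10 of 11 forebrain genes above 0 (median 0.39) and 13 of 15 muscle genes below 0 (median −0.15). For the combination minus increased cholecalciferol, 15 of 15 cerebellum genes lay above 0 (median 0.46) and 10 of 11 forebrain genes below 0 (median −0.53). These medians were, for 25(OH)D minus increased cholecalciferol, 0.03 for cerebellum, −0.02 for forebrain and 0.12 for muscle. The summed level of the 8 neuron genes, none of them at 0, was 3402 to 6127 CPM with 25(OH)D, 4645 to 8461 CPM with the combination, 3898 to 9443 CPM with increased cholecalciferol and 3615 to 8368 CPM with standard cholecalciferol. The part of these markers in the diet values of the ND genes was not tested.

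**Figure D3:**
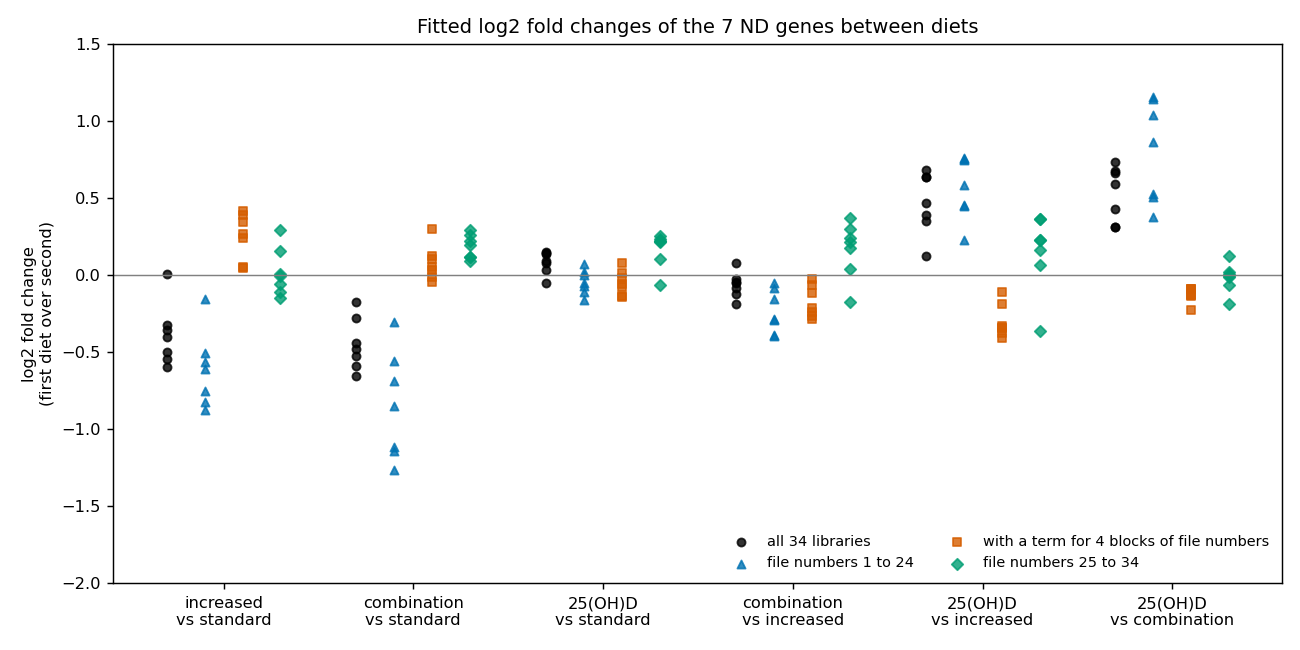
Log2 fold change of each ND gene (points) in the 6 contrasts between diets, fitted over all 34 libraries, over file numbers 1 to 24, with a term for 4 blocks of file numbers, and over file numbers 25 to 34. For 25(OH)D minus the combination, the median is 0.59 over all libraries and 0.87 in numbers 1 to 24, against −0.13 with the block term and −0.01 in numbers 25 to 34.

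The diets were not spread evenly over the file numbers. Numbers 1 to 12 held 7 of the 25(OH)D libraries and 5 of the standard cholecalciferol libraries and no other diet, and numbers 13 to 24 held 3 of the combination and 9 of the increased cholecalciferol libraries and no other. The summed ND share was 6.97 to 15.6% in numbers 1 to 12, with a median of 8.39% and a mean of 9.69 ± 2.74% (SD, n = 12), and 4.40 to 8.56% in numbers 13 to 24, with a median of 5.90% and a mean of 6.16 ± 1.32% (n = 12). Inside the first block the share averaged 9.57 ± 3.15% with 25(OH)D (n = 7) and 9.86 ± 2.39% with standard cholecalciferol (n = 5). Inside the second it averaged 5.54 ± 0.641% with the combination (n = 3) and 6.37 ± 1.45% with increased cholecalciferol (n = 9). In both blocks the ranges of the diets overlapped. Between the blocks, diet and file number cannot be told apart.

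The remaining 10 libraries mix diets from both blocks. In numbers 25 to 34 the ND share was 6.41% in the 1 library of 25(OH)D, 6.30, 6.76, 6.83, 6.99 and 7.67% in the 5 of the combination, 6.56% in the 1 of increased cholecalciferol and 4.48, 8.04 and 8.13% in the 3 of standard cholecalciferol. The 3 standard libraries there span all the others. For ND2 the same libraries gave 14203 CPM with 25(OH)D, 14091 to 15918 CPM with the combination, 13198 CPM with increased cholecalciferol, and 9193, 17699 and 17899 CPM with standard cholecalciferol. The fit was also restricted to these 10 libraries, with no term for run. The single 25(OH)D and increased cholecalciferol libraries were assumed to vary like the rest. The median of the 7 genes was 0.22 for 25(OH)D minus standard cholecalciferol, 0.20 for the combination minus standard and −0.01 for increased minus standard. In the first of these contrasts diet and run cannot be told apart. The second also lies mostly between the runs, since 4 of the 5 combination libraries came from numbers 30 to 34.

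A term for the 4 blocks of file numbers, added after the data had been seen, changed the direction of the larger differences. The median of the 7 genes became 0.27 (0.05 to 0.42 over the genes) for increased minus standard cholecalciferol, 0.06 (−0.04 to 0.30) for the combination minus standard, −0.34 (−0.41 to −0.11) for 25(OH)D minus increased and −0.13 (−0.22 to −0.09) for 25(OH)D minus the combination. That fit links the diets of numbers 1 to 12 with those of 13 to 24 only through the last 10 libraries. These hold 1 library of 25(OH)D and 1 of increased cholecalciferol, so directions under the block term are loosely determined and nothing is read from them. Within numbers 1 to 24, where the diets are split between the blocks, the medians were −0.61, −0.85, 0.58 and 0.87 in the same order. Without the 5 libraries of numbers 30 to 34 they were −0.41, −0.51, 0.54 and 0.72. With single libraries left out, the medians of these contrasts kept their signs: without 25(OH)D replicate 3, the median for 25(OH)D minus the combination was 0.42, and without standard cholecalciferol replicate 4, that for increased minus standard was −0.22 and that for the combination minus standard −0.31. The medians near 0 did not keep theirs. The median was, for 25(OH)D minus standard cholecalciferol, −0.06 without 25(OH)D replicate 3 and 0.26 without standard cholecalciferol replicate 4, and for the combination minus increased cholecalciferol it was −0.14 without increased cholecalciferol replicate 8 and 0.07 without increased cholecalciferol replicate 6.

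**Figure D4:**
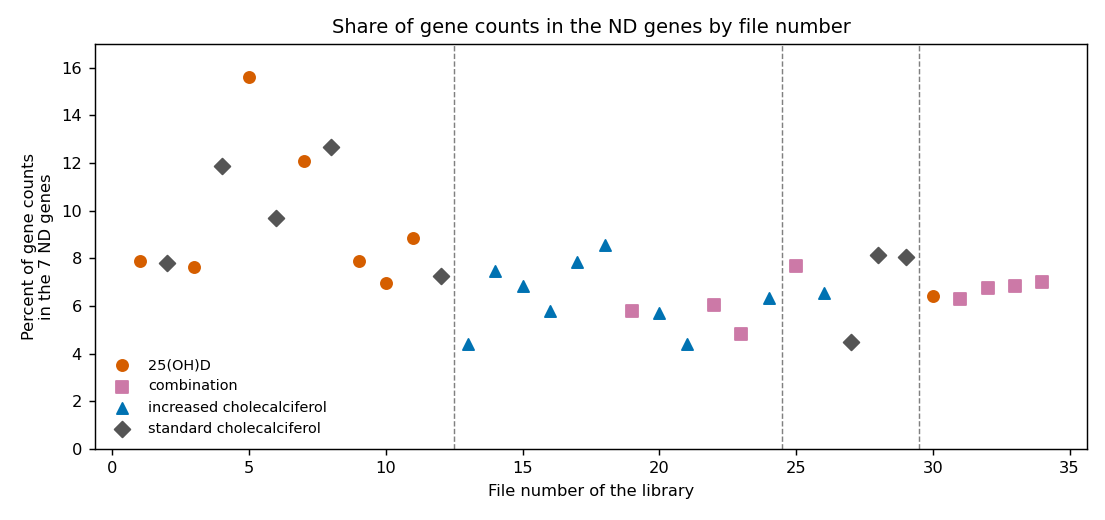
Summed share of gene counts taken by the 7 ND transcripts (percent, vertical axis) against the number of the deposited file (horizontal axis), with 1 point per library coloured by diet and dashed lines between numbers 12 and 13, 24 and 25, and 29 and 30. Numbers 1 to 12 reach from 6.97 to 15.6% and hold 25(OH)D and standard cholecalciferol, and numbers 13 to 24 reach from 4.40 to 8.56% and hold the combination and increased cholecalciferol.

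The libraries at the ends of the range came from several diets. The highest shares were 15.6% in 25(OH)D replicate 3, 12.7% in standard cholecalciferol replicate 4, 12.1% in 25(OH)D replicate 4 and 11.9% in standard cholecalciferol replicate 2, all from file numbers 1 to 12. The lowest were 4.40 and 4.41% in increased cholecalciferol replicates 1 and 8, 4.48% in standard cholecalciferol replicate 6 and 4.81% in combination replicate 3. Technical measures of the libraries were set against the ND share. Over 34 libraries its Pearson r was 0.01 with the log10 of total gene counts, 0.16 with the percentage of reads outside features, −0.32 with the percentage of reads aligned to more than 1 place and 0.00 with the share of the most abundant gene. Spearman's rho was 0.03, 0.20, −0.34 and 0.05 in that order, and none of the 4 relations passed (permutation tests, smallest adjusted p = 0.263 for r and 0.194 for rho). Without the 2 libraries farthest from the median of each measure, r was −0.02, 0.12, −0.35 and −0.09, and within file numbers 1 to 24 it was −0.09, 0.16, −0.33 and −0.02.

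Within mitochondrial mRNA, ND1 kept the steadiest proportion and ND6 the least steady. ND1 made up 4.99 ± 0.384% of the counts of the 13 mitochondrial protein genes (SD, n = 34), with a range of 4.20 to 5.96%, and ND6 made up 1.28 ± 0.345%, with a range of 0.733 to 2.27%. ND4 took 8.83 ± 1.49%, ND3 5.72 to 11.7%, ND2 5.08 to 10.7%, ND5 1.63 to 3.21% and ND4L 0.116 to 0.243%. A proportion of this kind does not depend on the mitochondrial share of a library. All ND genes together had a median of 33.8% (26.4 to 39.3%) with 25(OH)D, 32.8% (25.0 to 34.2%) with the combination, 29.9% (24.6 to 37.1%) with increased cholecalciferol and 34.8% (31.1 to 44.9%) with standard cholecalciferol, with overlap between all diets. ND4L had its highest median where ND2 had its lowest, with 0.176% with 25(OH)D, 0.181% with the combination, 0.199% with increased cholecalciferol and 0.169% with standard cholecalciferol. ND2 had medians of 7.81%, 7.18%, 6.26% and 8.38% of mitochondrial mRNA in the same order. By block, the ND genes made up 35.2 ± 4.50% in file numbers 1 to 12 and 29.8 ± 3.80% in 13 to 24 (n = 12 each), a difference in the same direction as that of the level.

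Sex did not enter the choice of the genes and was tested. All 7 ND genes had an estimate below 0 in females minus castrated males (48.8% of all genes did), but 0 of 7 passed, where 0.0787% of genes did (11 genes, all lower in females, edgeR's quasi-likelihood test with Benjamini-Hochberg adjustment). ND4, with the largest difference, had a median of 18697 CPM (11008 to 32767) in 18 females and 21948 CPM (10623 to 47742) in 16 castrated males. ND1 had a median of 10428 CPM (6912 to 18024) in females and 11292 CPM (7766 to 22458) in castrated males. The ranges of the sexes overlapped almost throughout. The log2 fold change was −0.26 for ND4 (SE 0.18), −0.19 for ND2 (SE 0.18), −0.18 for ND3 (SE 0.17), −0.16 for ND1 (SE 0.15), −0.10 for ND4L (SE 0.12), −0.08 for ND5 (SE 0.11) and −0.02 for ND6 (SE 0.16). In edgeR's test, unadjusted p-values of the 7 genes ran from 0.149 to 0.923 and adjusted ones from 0.805 to 0.992. DESeq2 called 15 genes and limma-voom 10, and neither called an ND gene, while 919 genes (6.58%) and 0 ND genes had an unadjusted p under 0.05 in edgeR. The sign of ND6 turned within file numbers 1 to 24 (0.10) and without numbers 30 to 34 (0.05).

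The summed ND share averaged 7.04 ± 1.78% in females (SD, n = 18) and 8.23 ± 2.93% in castrated males (n = 16), a difference of −1.19 percentage points (two-sided permutation test, p = 0.161). Within file numbers 1 to 24 the difference was −1.20 (p = 0.309, permutation test, n = 13 and 11), and without numbers 30 to 34 it was −1.14 (p = 0.246, permutation test, n = 14 and 15). As a proportion of mitochondrial mRNA the 7 genes and their sum gave 8 tests, none of which passed (permutation tests, smallest adjusted p = 0.850). ND4 showed the largest gap, at 8.57 ± 1.482% in females and 9.12 ± 1.501% in castrated males. The p-values measure the spread between animals, as far as each library is a separate animal.

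Markers differed in direction between the sexes as well. The 15 tested cerebellum genes all lay above 0 in females minus castrated males (median 0.37), 8 of 9 liver genes lay above 0 (median 0.71), and all 6 oligodendrocyte genes lay below 0 (median −0.40), with 0 called in each list. Their part in the sex values was not tested. Whether a sex difference depended on diet was also tested, and 0 of 7 ND genes passed, where 0% of genes did (edgeR, F-test of the interaction terms), with unadjusted p-values of 0.0909 for ND2 to 0.716 for ND4L and adjusted p-values of 1.00. DESeq2's likelihood ratio test called 0 genes, and 384 genes (2.75%) had an unadjusted p under 0.05 in edgeR.

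The runs of file numbers were compared in a model with diet and sex, and since runs entered the choice of the genes, nothing is read from the calls of ND genes. In numbers 25 to 29 against 1 to 24, the log2 fold changes were −0.45 for ND2 (SE 0.29), −0.32 for ND3 (SE 0.27), −0.25 for ND1 (SE 0.25), −0.24 for ND6 (SE 0.26), −0.23 for ND4 (SE 0.29), −0.15 for ND5 (SE 0.18) and −0.13 for ND4L (SE 0.19). All 7 estimates lay below 0, as did 53.1% of all genes, and 0 of 7 were called, as were 0% of genes (edgeR, DESeq2 and limma-voom each called 0, and 854 genes or 6.11%, none of them an ND gene, had an unadjusted p under 0.05 in edgeR). Beside this, 6 of 6 oligodendrocyte genes lay below 0 (median −0.78), 7 of 7 microglia genes below 0 (median −0.55), 14 of 15 cerebellum genes above 0 (median 0.40) and 7 of 9 liver genes above 0 (median 0.88). In numbers 30 to 34 against 1 to 24, ND4L was at −0.36 (SE 0.22), ND6 at −0.30 (SE 0.30) and the other 5 between −0.13 and −0.03. All 7 estimates lay below 0, as did 54.7% of all genes, and 0 of 7 were called, against 0.0716% of genes (10 genes, all higher, by edgeR, 70 by DESeq2 and 13 by limma-voom, and 1841 genes or 13.2%, with 0 ND genes, at an unadjusted p under 0.05 in edgeR). In that run 3 of the 15 tested muscle genes were called higher (median 0.99). The part of these markers in the run values was not tested.

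The 5 libraries of numbers 30 to 34 were close to each other in ND transcripts. Their shares of 6.30, 6.41, 6.76, 6.83 and 6.99% gave a coefficient of variation of 4.39%, against 28.3% in numbers 1 to 12, 21.5% in 13 to 24 and 21.9% in 25 to 29. ND5 varied by 3.11% in these 5 libraries, ND3 by 4.47%, ND4L by 4.47% and ND6, the most variable, by 7.62%. The 4 combination libraries and the 1 25(OH)D library of that run did not stand apart from each other in ND1, at 9378 to 10706 CPM and 9915 CPM.

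The libraries differed in markers of brain regions, summarised as a regional score, the mean log2 CPM of 16 cerebellum genes minus that of 14 forebrain genes. The score ran from 0.53 to 5.40 with a median of 1.42. Its widest gap was 0.58 over all 34 libraries and 0.954 without file numbers 30 to 34, where 22 libraries lay at 3.07 or below and 7 at 4.02 or above. ND transcripts were lower where the score was higher, most of all ND4L and ND1. The score entered the choice of the genes, so the correlations are a description, with no test. Over 34 libraries Pearson's r with log2 CPM was −0.69 for ND4L, −0.66 for ND1, −0.56 for ND4, −0.51 for ND2, −0.48 for ND3, −0.31 for ND5 and −0.24 for ND6. Spearman's rho was −0.65, −0.64, −0.52, −0.41, −0.42, −0.20 and −0.19 in that order. The summed share had r = −0.49 and rho = −0.48.

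The size of r depended on the set of libraries. Without the 2 libraries farthest from the median score, it was −0.71 for ND4L, −0.66 for ND1, −0.58 for ND4, −0.56 for ND2, −0.54 for ND3, −0.42 for ND5, −0.41 for ND6 and −0.52 for the share. With levels scaled to the counts outside mitochondrial DNA, ND5 was at −0.46 and ND6 at −0.38. Within file numbers 1 to 24 (n = 24), r was −0.63 for ND4L, −0.62 for ND1, −0.53 for ND4, −0.50 for ND2, −0.46 for ND3, −0.34 for ND5 and −0.18 for ND6. Without numbers 30 to 34 (n = 29), ND4L was at −0.67, ND1 at −0.64 and ND6 at −0.21. On the lower side of the gap in those 29 libraries (n = 22), r was −0.46 for ND4, −0.44 for ND3, −0.42 for ND1, −0.41 for ND2, −0.40 for ND4L, −0.39 for ND5 and −0.27 for ND6, and on the upper side (n = 7) it lay between −0.34 for ND1 and 0.0079 for ND6. The values of ND1 and ND4L were thus smaller on each side than over all 29. Spearman's rho on the lower side was −0.38 for ND4, −0.34 for ND3, −0.29 for ND2 and −0.25 for ND1. For ND5, ND4L and ND6 it was −0.23, −0.15 and −0.13. On the upper side rho lay between −0.25 for ND1 and ND4L and 0.36 for ND6. Inside numbers 13 to 24 (n = 12), ND1 had r = −0.82, ND4 −0.74, ND2 −0.67, ND3 −0.64 and ND4L −0.54. Their rho was −0.66, −0.61, −0.44, −0.57 and −0.45 in that order. Inside numbers 1 to 12 (n = 12), ND4L was at −0.71, the summed share at −0.40 and ND6 at 0.08. There rho was −0.46 for ND4L, −0.24 for the share and 0.53 for ND6. Numbers 25 to 29 and 30 to 34 hold too few libraries for a value.

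**Figure D5:**
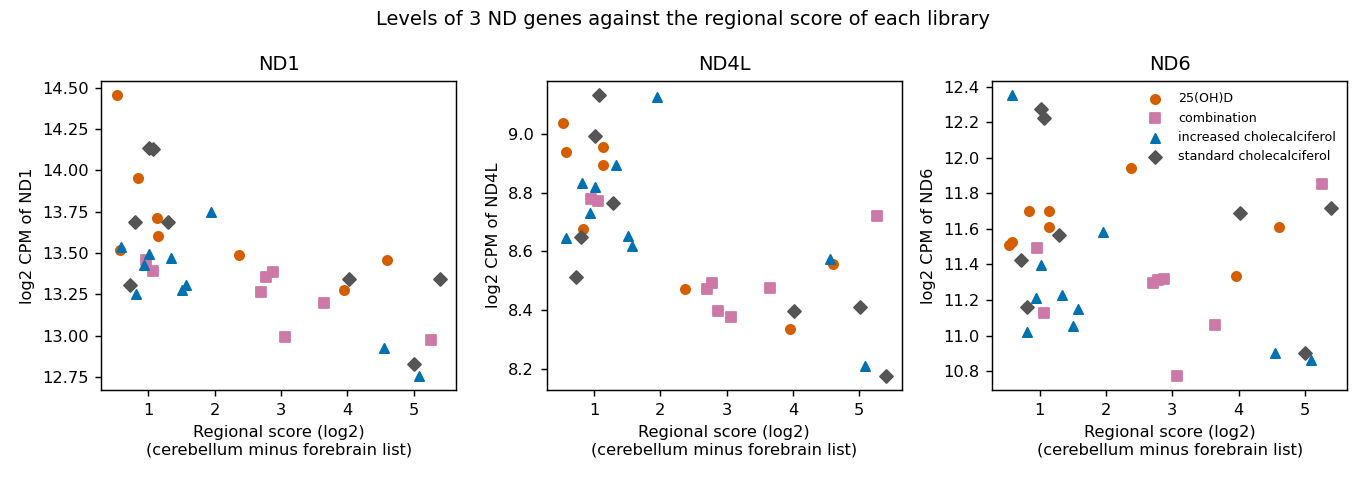
Log2 CPM of ND1, ND4L and ND6 (vertical axes) against the regional score (horizontal axis, mean log2 CPM of cerebellum genes minus that of forebrain genes), with 1 point per library coloured by diet. ND1 (r = −0.66) and ND4L (r = −0.69) fall along the axis, and ND6 (r = −0.24) scatters.

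Marker scores of cells and tissues were set against the summed ND share in a family of 8 relations. The cerebellum and forebrain lists make up the regional score, so their r of −0.55 and 0.37 is a description. Of the other 6 scores, Pearson's r passed for neurons (−0.62, adjusted p = 0.0008), skeletal muscle (−0.51, 0.00421) and liver (−0.40, 0.0410), and not for astrocytes (−0.30), microglia (0.22) and oligodendrocytes (−0.06, permutation tests, n = 34). Spearman's rho was −0.43 for neurons and −0.47 for muscle, which passed (adjusted p = 0.0302 and 0.0216, permutation tests), and −0.36 for liver, which did not. Without the 2 farthest libraries, r was −0.45 for neurons, −0.55 for muscle and −0.44 for liver. Without file numbers 30 to 34 (n = 29), neurons (−0.62, adjusted p = 0.00232) and muscle (−0.53, 0.00877) passed and liver (−0.40, 0.0699) did not (permutation tests). Within file numbers 1 to 24 (n = 24), neurons (−0.59) and muscle (−0.56) passed and the other 4 did not. ND reads are part of the total by which marker CPM are scaled. With both scaled to the counts outside mitochondrial DNA, neurons (−0.34), muscle (−0.36) and liver (−0.30) did not pass and microglia (0.43, adjusted p = 0.0231) did (permutation tests). Libraries were permuted freely over diets and file numbers, along which the ND share differed and the genes were chosen. Numbers 1 to 24 hold both the block of 1 to 12 and that of 13 to 24, and these scores were not taken within a block. The regional score entered that choice as well, and the libraries highest in the neuron score were also highest in the regional score. The 2 scores were 9.26 and 5.01 in standard cholecalciferol replicate 6 and 9.24 and 5.09 in increased cholecalciferol replicate 1. They were 9.16 and 5.26 in combination replicate 1 and 9.12 and 5.40 in standard cholecalciferol replicate 1. Relations that passed therefore cannot be told apart from differences between diets or blocks or along the regional score.

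The nuclear partners of the ND proteins did not follow the ND transcripts as a group. Pearson's r with the mean log2 CPM of the 7 ND genes over 34 libraries had a median of 0.04 over the 26 tested nuclear complex I subunits and of 0.00 over all genes, and 11 of the 26 lay below 0. NDUFA5, a small accessory subunit (r = 0.71), and NDUFS6, a zinc-binding subunit of the peripheral arm (0.61), were the highest, and NDUFA7 (−0.54) the lowest. For comparison, the 6 other mitochondrial protein genes had r = 0.91 for CYTB, 0.86 for ATP6, 0.83 for COX1, 0.80 for ATP8, 0.78 for COX3 and 0.76 for COX2. The 15 assembly factors had a median of 0.07, from NDUFAF5 (−0.63) to NDUFAF7 (0.51). The 17 genes of mitochondrial RNA processing had a median of 0.02, from TRMT10C (−0.46), a subunit of mitochondrial RNase P, to FASTKD1 (0.53). Of 11 genes of mitochondrial transcription and DNA maintenance, with a median of −0.19, the packaging factor TFAM was at −0.58 and the topoisomerase TOP1MT at 0.65, and of 8 regulators of mitochondrial biogenesis, with a median of 0.28, the coactivator PPARGC1A was at 0.55 and GABPA at −0.67. These are descriptions over libraries that share depth and tissue makeup, with no test.

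In the sex contrast 0 of the 26 nuclear subunits were called in either direction (edgeR), while 24 of 26 lay above 0 in females minus castrated males with a median of 0.09, against 0.00 over all genes. The 3 with the smallest unadjusted p were NDUFAB1, the mitochondrial acyl carrier protein (0.30, SE 0.12), NDUFB6 (0.44, SE 0.18) and NDUFA7 (0.38, SE 0.16), at adjusted p-values of 0.693 to 0.700 in edgeR. Of the assembly factors 0 of 15 were called, with NDUFAF8 at 0.48 (SE 0.23), NDUFAF5 at 0.36 (SE 0.21) and TMEM186 at 0.17 (SE 0.11). Of the RNA-processing genes 0 of 17 were called, with the mRNA-stabilising LRPPRC at 0.23 (SE 0.08), the tRNA-cutting ELAC2 at 0.26 (SE 0.13) and TRMT10C at 0.24 (SE 0.14). Likewise 0 of 11 transcription genes were called, led by MTERF3 at 0.23, MTERF1 at −0.20 and TFB2M at 0.29, and 0 of the 6 other mitochondrial protein genes, led by CYTB at −0.15, COX3 at −0.13 and ATP6 at −0.14. Of 8 regulators 0 were called, with NRF1, a transcription factor of respiratory genes, at −0.51 (SE 0.16, adjusted p = 0.612 in edgeR), PPARD at 0.19 and PPARGC1A at −0.12.

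In file numbers 30 to 34 against 1 to 24, 0 of 26 nuclear subunits passed, and 17 of them lay below 0 (median −0.18, against −0.05 over all genes). At an unadjusted p under 0.05 in edgeR there were 9 of 26, against 13.2% of all genes. Those with the smallest unadjusted p all lay above 0, opposite to the median of the list. They were the flavoprotein subunit NDUFV2 (0.60, SE 0.15, adjusted p = 0.0825 in edgeR), NDUFB8 (0.43, SE 0.13) and NDUFA10 (0.48, SE 0.15). Of the assembly factors 0 of 15 passed, with NDUFAF1 at −0.83 (SE 0.19, adjusted p = 0.0825), NDUFAF6 at 0.96 (SE 0.30) and NUBPL at −0.84 (SE 0.32). In numbers 25 to 29 against 1 to 24 no gene of these lists passed either, with NDUFA10 at 0.27 (SE 0.13), NDUFB9 at −0.42 (SE 0.22) and NDUFB2 at −0.24 (SE 0.14) leading the nuclear subunits.

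Among 7230 nuclear genes with a symbol and a mean of at least 10 CPM, those whose log2 CPM, scaled by TMM, was most like the mean of the ND genes over 34 libraries were TENM2, a synaptic adhesion protein (r = 0.87, mean 23.5 CPM), ACSBG1, an acyl-CoA synthetase (0.85, 160 CPM), ZNF513 (0.84, 46.2 CPM), MT3, the brain metallothionein (0.84, 1827 CPM), and GRM5, a metabotropic glutamate receptor (0.83, 95.6 CPM). Among those least like it were HNRNPA2B1, an RNA-binding protein (−0.82, 279 CPM), KLF9 (−0.79, 105 CPM), RFX7 (−0.79, 12.5 CPM) and BCAR1 (−0.79, 29.7 CPM). Within file numbers 1 to 24 the values were close to these, at 0.88 for TENM2, 0.84 for ACSBG1 and −0.81 for HNRNPA2B1 (n = 24). The highest of them, TENM2, lay below CYTB (0.91) and above ATP6 (0.86), COX1 (0.83), ATP8 (0.80), COX3 (0.78) and COX2 (0.76). The nuclear genes were picked as extremes, so that their r is a description with no test.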

How the data were processed

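Per the labels' protocols, RNA of frozen tissue was taken up in Trizol, and QuantSeq forward kits gave the libraries. The submitters' processing notes name FastQC, TopHat, HTSeq and DESeq2. Versions, genome build and strand setting were not given in the sources used here. Unnormalized counts by gene make up the deposited files. Their HTSeq category lines entered neither library sizes nor tests. Of the reads in a file, 16.4 to 29.9% lay outside features, 3.63 to 4.68% were ambiguous and 11.2 to 20.7% aligned to more than 1 place. Symbols were matched for 15029 of 31907 identifiers.

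Counts were fitted with edgeR 4.0.16 in R 4.3.3 (quasi-likelihood test, TMM scaling, expression filter by diet, model of diet and sex, Benjamini-Hochberg adjustment over all genes tested, threshold 0.05). The SE given beside an edgeR log2 fold change is its absolute value divided by the square root of the F statistic of the quasi-likelihood test. DESeq2 1.42.0 and limma 3.58.1 (voom) were alternatives. Log2 CPM used a prior count of 3, with TMM scaling only for the likeness between genes. Correlations and sex shares used 100000 permutations in Python 3.11.15, where the smallest p they can give is 1e-05. Replicate numbers follow accession order and pair nothing. The scripts were tested on simulated data. The 7 genes, the gene lists and the tests were chosen with earlier results of these data known. The naming rule was all 7 genes, the 3 genes of a described list with the smallest unadjusted p in a contrast, and the 5 most and 5 least alike nuclear genes. Of these, 1 is not reported here. Genes named as the ends of a list's range of r were chosen after their values were seen. List symbols with an identifier were 29 of 37 for nuclear complex I, 15 of 17 for assembly, 6 of 6 for other mitochondrial proteins, 13 of 14 for transcription, 19 of 20 for RNA processing, 9 of 9 for regulators, 16 of 23 for muscle, 8 of 10 for neurons, 7 of 8 for oligodendrocytes, 6 of 8 for astrocytes, 7 of 8 for microglia, 16 of 16 for cerebellum, 14 of 14 for forebrain, 10 of 12 for liver and 0 of 2 for mitochondrial rRNA, which was not used here.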

Additional observations from a re-analysis of the deposited data

Results flagged for a closer look

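In 54 checks of single libraries within groups of 5 to 10, 3 values of the ND genes lay far from the rest of their group. Chance gives about 5% of checks, and 3 of 54 is close to that, so nothing further is read from them. ND5 stood at 7243 CPM in 25(OH)D replicate 3, the library with the highest ND share, and the next 25(OH)D library had 5851 CPM. ND6 stood at 5232 CPM in increased cholecalciferol replicate 6, against 3072 CPM in the next library of that diet. In file numbers 30 to 34, ND6 was lowest in combination replicate 5, at 2131 CPM, where the nearest of the other 4 libraries had 2514 CPM.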

How the results depend on the processing

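No paired analysis was possible because the replicate numbers follow accession order and no label ties an animal of one diet to an animal of another. Under each setting run, 0 of the 7 ND genes were called in the diet, sex and run contrasts and 0 in the interaction. Counts of called genes that differed from the main analysis by more than 1.5 times were, for the combination minus standard cholecalciferol, 1 in file numbers 25 to 34, and for the combination minus increased cholecalciferol, 1 with a run term, 2 within numbers 1 to 24, 1 without 30 to 34, 2 with a term for 4 blocks and 1 in numbers 25 to 34. For 25(OH)D minus the combination they were 8 within numbers 1 to 24 and 2 without 30 to 34, for sex 18 with the run term, 17 with the 4-block term and 1 in numbers 25 to 34, and for numbers 30 to 34 against 1 to 24 they were 70 by DESeq2 and 2 to 34 with single libraries left out. Directions turned for ND6 in the sex contrast (0.10 within numbers 1 to 24, 0.0483 without 30 to 34 and 0.0023 with the 4-block term, and −0.11 to 0.0482 with single libraries left out) and, by limma-voom, for ND2 (0.0103) and ND4 (0.0018) in numbers 30 to 34. With single libraries left out, ND4 ran from −0.48 to 0.0164, ND4L from −0.23 to 0.0017 and ND5 from −0.25 to 0.0021 in numbers 25 to 29. In numbers 30 to 34, ND1 ran from −0.26 to 0.0712, ND2 from −0.20 to 0.22, ND3 from −0.28 to 0.11, ND4 from −0.21 to 0.22 and ND5 from −0.14 to 0.10. For the regional score, r of ND6 was 0.0825 and that of the summed share −0.40 in numbers 1 to 12, and without 30 to 34 the share had −0.41 below and −0.27 above the widest gap, where ND6 had 0.0079. The causes were not tested. The settings with 4 blocks, with numbers 25 to 34, 1 to 12 or 13 to 24 alone, on each side of the gap, and of the scores, share and composition without 30 to 34, were chosen after seeing the data. The planned set of regional lists was the same as the main one and gave no further value. Depth limits ND4L most, with 433 reads in its lowest library.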
